A study of Prunus persica with 4 samples.

Results

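The abundant miRNA candidates miRC57, miRC140, miRC162, miRC167 and miRC179, which the study reports among its putative peach-specific miRNAs, are described here. They were selected on their measured abundance: each had over 500 reads on its precursor, and its most abundant arm sequence was listed for no other candidate. These 5 were found among 186 candidates, of which 135 had a most abundant sequence listed once and 11 had over 500 reads. The reads came from 1 small RNA library of *Prunus persica* cv. Lovell, made from young leaves, young stems and flower buds mixed before sequencing, with no treatment and no replicate. No value therefore belongs to a tissue, and no value has a replicate error. The series also holds 3 degradome libraries, from young leaves, young stems and flowers, which were not analysed here. Values are raw read counts, not normalized for depth, and intervals are 95% Wilson intervals that cover counting error only, since amplified reads are not independent molecules.

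In plants, a miRNA is cut from a hairpin transcript by a Dicer-like enzyme, mostly DCL1 in Arabidopsis. The cuts leave a short duplex of the mature strand and its partner strand, the miRNA*, and each strand projects at its 3′ end by a short overhang. The mature strand enters an ARGONAUTE protein and guides it to complementary transcripts, while the miRNA* is usually lost. In Arabidopsis, the first base and the length of a small RNA affect which ARGONAUTE takes it up, with uracil favoured by AGO1. A sequence cut from a precise site on a hairpin, with reads of the partner strand at the matching site, is the usual mark of a miRNA among the many other small RNAs of a plant.

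The sequences listed for the 5 candidates are shown first because the arm use and the duplex ends rest on them. Each is written 5′ to 3′ as DNA, as deposited, with bases 2 to 8 (the seed) in capitals.
miRC57 3p: gTTCCCCGgcaacggcgcca
miRC140 5p: tCCGAATGtagcctagatgcc
miRC140 3p: cATCTAGGctacattcggaga
miRC162 5p: cACTTTGTagagaaggttcatt
miRC162 3p: tGAACCTTgtgtacaaattggc
miRC167 5p: aTCATGTCaccaggaaccaag
miRC167 3p: tGATTCTTgttgacgtgatgt
miRC179 5p: cACTGATAgaattgggggcac
miRC179 3p: aTCCCCAAttctatcagtgct

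The most abundant sequence was on the 5′ arm (5p) in 3 candidates, miRC140, miRC162 and miRC179, and on the 3′ arm (3p) in 2, miRC57 and miRC167. It was 20 nt long in miRC57, 22 nt in miRC162 and 21 nt in the other 3. It began with T, the DNA letter for uracil, in miRC140 and miRC167, with C in miRC162 and miRC179, and with G in miRC57. None began with A, the first base of 60 of the 186 candidates. None was 23 nt long, the length of 82 candidates. The 5 sequences were unlike each other, with 11 to 15 edits (substitutions, insertions or deletions) between any pair of them. No other candidate, and none of the 117 conserved sequences that the study lists, shared the seed of any of the 5. The rule had already left out sequences listed for several candidates. Seeds and edit distances were not compared for the other candidates, so no background share is given. The nearest sequence of another candidate was 8 edits away for miRC179, from miRC178, and 9 edits away for the other 4. The nearest conserved sequence was 8 edits away for miRC140 (miR393), miRC167 (miR172) and miRC179 (miR156 and miR157), 9 for miRC162 (miR171 and miR397) and 11 for miRC57. The 5 sequences were found in no other listed precursor on either strand. The rest of the genome, other species and other RNA classes were not searched here, so peach specificity was not examined.

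The 5 precursors lay on 4 scaffolds of the peach genome, counted from 1 as in the deposited table, whose genome version is not given in the sources used here, so that no gene annotation was joined to them. miRC57 was on the minus strand of scaffold 2, spanning 7959966 to 7960209, with its 3p sequence from 7959976 to 7959995. miRC140 was on the plus strand of scaffold 6, spanning 2567185 to 2567419, with the 5p sequence from 2567195 to 2567215 and the 3p sequence from 2567390 to 2567410. miRC162 was on the plus strand of scaffold 7, spanning 7795407 to 7795498, with the 5p sequence from 7795417 to 7795438 and the 3p sequence from 7795469 to 7795490. No member lay beside another one. The only pair on the same scaffold was miRC162 and miRC167, with 4908169 bases between them. miRC167 was on the minus strand of scaffold 7, spanning 2887134 to 2887237, with the 3p sequence from 2887144 to 2887164 and the 5p sequence from 2887204 to 2887224. miRC179 was on the plus strand of scaffold 8, spanning 4474769 to 4474854, with the 5p sequence from 4474779 to 4474799 and the 3p sequence from 4474825 to 4474845. The nearest other candidate on the scaffold was 192652 bases from miRC140 (miRC141), 258836 from miRC162 (miRC170), 285086 from miRC57 (miRC58), 1163177 from miRC179 (miRC184) and 1241851 from miRC167 (miRC166). None of the 5 was therefore part of a tight cluster of listed candidates. Distances between the other candidates were not computed, so no background is given.

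The totals that chose the members are given as a description. miRC57 had 1883 reads on its precursor, miRC167 had 1136, miRC162 had 1050, miRC140 had 604 and miRC179 had 599. These were the 5 highest totals in the table. Together they held 5272 of the 15705 reads summed over all candidates, 33.6%, and 50.2% of the 10503 reads of candidates whose most abundant sequence was listed once. Candidates that list the same sequence each carry its reads. The first sum can therefore count a read more than once, and its share is given without an interval. The 3 candidates just under the limit with a sequence listed once were miRC49 with 410 reads, miRC127 with 360 and miRC151 with 332. Each of these 3 had a listed sequence on 1 arm only, which began with G, as in miRC57. The other 130 candidates with a sequence listed once had a median of 12.5 reads.

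**Figure D1:**
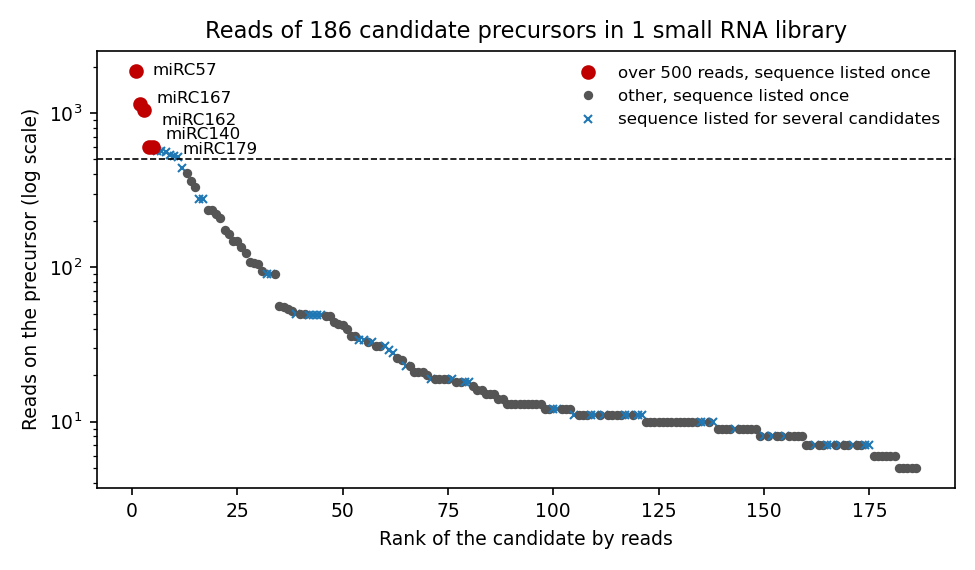
Reads on the precursor (log scale) against rank for the 186 candidates of 1 library; circles mark a most abundant sequence listed once, crosses one listed for several candidates, red the 5 members, and the dashed line the limit of 500 reads. The members run from 599 to 1883 reads, and the next candidate with a sequence listed once has 410.

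Arm use was one-sided in all 5 candidates, to different degrees. In miRC57, 1876 reads were counted for the 3p sequence, and no 5p sequence was listed. In miRC167, 1091 reads were on the 3p sequence and 26 on the 5p sequence. In miRC162, 1035 reads were on the 5p sequence and 14 on the 3p sequence. The most abundant sequence thus held nearly all reads of these 3 precursors. In miRC140, 558 reads were on the 5p sequence and 40 on the 3p sequence. This counts all 558 on the plus strand, although that sequence also occurs on the minus strand of the locus. In miRC179, 584 reads were on the 5p sequence and 1 on the 3p sequence, so that its partner strand rests on a single read.

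As a share of the reads of both listed arms, the less abundant arm had 6.69% in miRC140 (interval 4.95 to 8.98%). This value counts all 558 reads of its 5p sequence on the plus strand, as the table does, although the same sequence also occurs on the minus strand of the locus, as described further on. It had 2.33% in miRC167 (interval 1.59 to 3.39%) and 1.33% in miRC162 (interval 0.797 to 2.23%). It had 0.171% in miRC179 (interval 0.0302 to 0.962%). With that assignment, the interval of miRC140 lay above those of the other members. The intervals of miRC167 and miRC162 overlapped, as did those of miRC162 and miRC179, and the differences between these neighbours were not tested. The interval of miRC167 lay above that of miRC179. In miRC57, 0 of the 1876 reads counted for listed sequences were on a 5p sequence, which allows a share of up to 0.160% of them from 3 reads (Wilson upper bound 0.204%). This does not cover the 7 reads of its precursor that were counted for no listed sequence and may lie on either arm. They were 0.372% of its 1883 reads (interval 0.180 to 0.765%). Even with all of them on the 5p arm, the upper bound was below the lower bounds of miRC140, miRC167 and miRC162, but not below that of miRC179.

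Both arms had a listed sequence in 4 of the 5 members, beside 24.7% of all candidates. The members also had more reads than the other candidates, and the part of depth in this count was not tested. Among the 25 other candidates with at least 100 arm reads, 12 had both arms, and among the 16 of these with a sequence listed once, 4 had both. In those 12, the less abundant arm held 0.391 to 44.2% of the arm reads, with a median of 3.97%. Some of the 12 list the same sequence as another and carry the same reads, so they are not 12 separate values. In the 4 with a sequence listed once, the share was 0.930, 1.37, 2.83 and 44.2%. The share in miRC140, miRC162 and miRC167 was within the range of the 12. That in miRC179, from 1 read, was below it, but its interval, up to 0.962%, reached into the range.

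**Figure D2:**
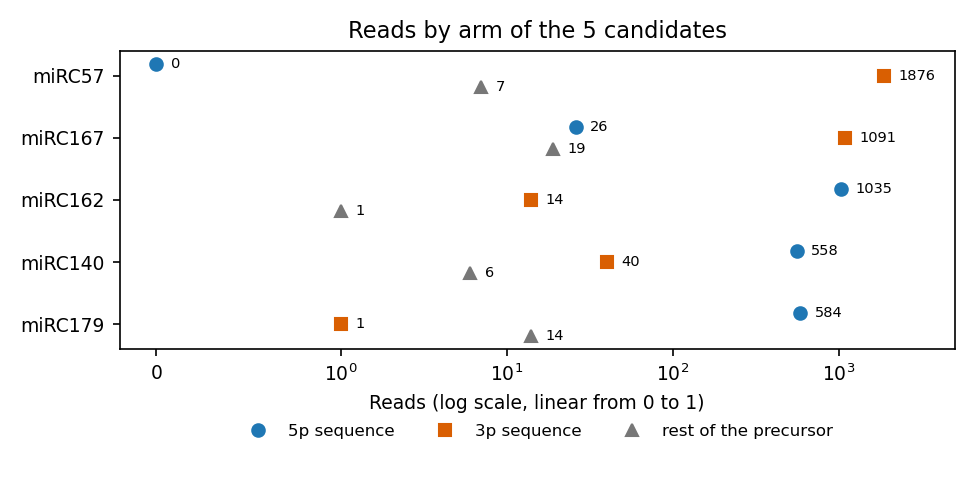
Reads of the 5p sequence (blue circles), the 3p sequence (orange squares) and the rest of the precursor (grey triangles) for each member, on a log axis that is linear from 0 to 1. The abundant arm had 558 to 1876 reads and the other arm 0 to 40.

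**Figure D3:**
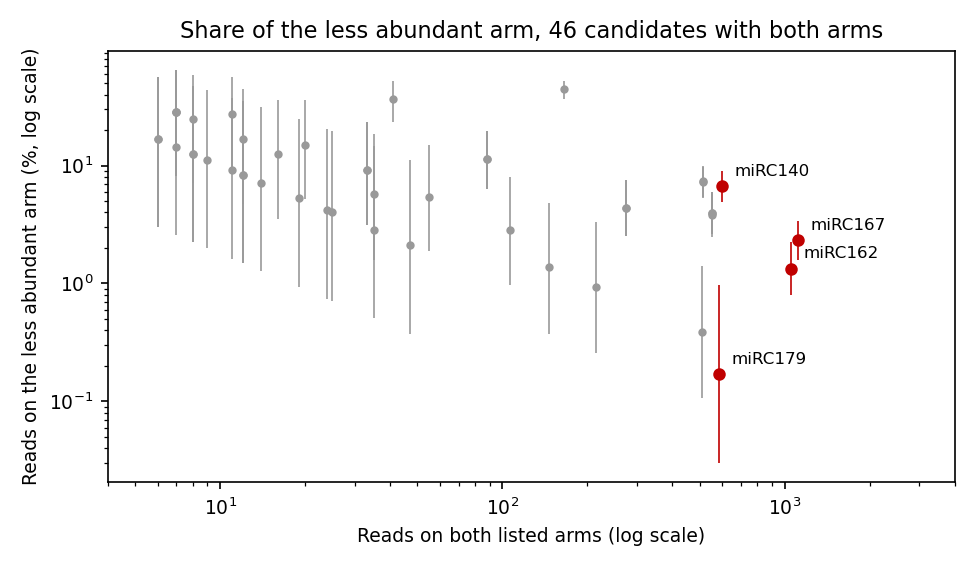
Share of arm reads on the less abundant arm (log scale, bars are 95% Wilson intervals) against the reads of both arms (log scale) for the 46 candidates with both arms listed, with 4 members in red. miRC140, with its 5p reads counted on the plus strand, is at 6.69%, above miRC167, miRC162 and miRC179; miRC57 has no second arm and is not plotted.

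Few reads of the 5 precursors fell outside the listed sequences. These were 1 of 1050 reads in miRC162 (0.0952%, interval 0.0168 to 0.537%), the 7 of 1883 given above in miRC57 and 6 of 604 in miRC140 (0.993%, interval 0.456 to 2.15%). They were 19 of 1136 in miRC167 (1.67%, interval 1.07 to 2.60%) and 14 of 599 in miRC179 (2.34%, interval 1.40 to 3.88%). The intervals of miRC167 and miRC179 lay above that of miRC162. In miRC179 these 14 reads outnumbered the 1 read of the partner strand. Their place on the precursor is not listed. The most abundant sequence alone held 92.4% of the reads of miRC140, 96.0% in miRC167, 97.5% in miRC179, 98.6% in miRC162 and 99.6% in miRC57. In the 3 candidates just under the limit it held 410 of 410 reads (miRC49), 354 of 360 (miRC127) and 330 of 332 (miRC151). A small rest was thus not particular to the members.

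The precursors are shown with the listed sequences in capitals, because the pairing of these sequences sets the ends of each duplex.
miRC162, 92 nt: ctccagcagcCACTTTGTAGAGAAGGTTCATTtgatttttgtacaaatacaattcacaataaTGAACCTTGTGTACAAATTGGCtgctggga
miRC167, 104 nt: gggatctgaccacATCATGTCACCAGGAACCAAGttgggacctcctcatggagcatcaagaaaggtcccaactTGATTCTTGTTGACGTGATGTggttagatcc
miRC179, 86 nt: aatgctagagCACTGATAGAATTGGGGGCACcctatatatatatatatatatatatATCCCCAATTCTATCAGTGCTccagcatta
miRC140, 235 nt: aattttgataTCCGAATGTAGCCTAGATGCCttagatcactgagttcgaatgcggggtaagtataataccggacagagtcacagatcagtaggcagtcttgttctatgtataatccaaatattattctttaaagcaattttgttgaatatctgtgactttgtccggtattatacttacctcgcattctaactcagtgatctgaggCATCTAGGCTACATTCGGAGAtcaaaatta
miRC57, 244 nt: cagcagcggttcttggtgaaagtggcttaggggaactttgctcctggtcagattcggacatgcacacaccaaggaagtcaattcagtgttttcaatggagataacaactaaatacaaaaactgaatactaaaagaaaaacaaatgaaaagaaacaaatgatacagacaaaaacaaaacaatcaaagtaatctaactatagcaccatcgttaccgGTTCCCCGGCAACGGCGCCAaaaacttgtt

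The most abundant sequence began 10 bases from the 5′ end of the precursor in miRC140, miRC162 and miRC179, and ended 10 bases before its 3′ end in miRC57 and miRC167. A flank of exactly 10 bases was found at the 5′ end of 92 candidates and at the 3′ end of 89. The listed ends of the precursors are thus mostly tied to the reads and do not measure the ends of a transcript.

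In the deposited structures, the listed arms of miRC140, miRC162 and miRC167 formed a duplex with a 3′ overhang of 2 bases at both ends, the form left by a Dicer-like cut. Among all 46 candidates with both arms this form was found in 89.1%, so the members did not stand apart in it. In miRC140 the duplex had 19 base pairs, and the 5p sequence had no unpaired base; position 20 of the 3p sequence, a G in its overhang, was the single unpaired base. In miRC162 the duplex had 17 pairs with 3 mismatched positions, at bases 3, 10 and 12 of the 5p sequence and bases 9, 11 and 18 of the 3p sequence, counted from the 5′ end of each. In miRC167 the duplex had 17 pairs, of which 2 were G-U pairs, with mismatches at bases 3 and 10 of the 3p sequence, facing bases 17 and 10 of the 5p sequence. The mismatches of miRC162 and miRC167 faced each other with equal numbers of bases on both strands, so no base was bulged.

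In miRC179 the overhang was 2 bases at the base of the stem, but the end towards the loop depended on how it was counted. The last 3 bases of the 5p sequence lay in a run of 5 unpaired bases, and the first base of the 3p sequence, base 57 of the precursor, paired with base 34 beyond that run. Counted from that pair, the 5p sequence ended 3 bases short of its partner. Counted from the outermost pair that joins both listed sequences, between bases 28 and 58 of the precursor, the 3′ overhang of the 5p sequence was 2 bases. By this count, which was chosen after the structures were seen, 4 of the 4 members with both arms had 2-base overhangs at both ends, as did 42 of all 46 candidates with both arms. The base pairing beyond the run was made by 12 TA repeats from base 34 to base 57, the last of which overlaps the 3p sequence. The duplex of miRC179 had 18 pairs, and all 3 unpaired bases of its 5p sequence were at the 3′ end.

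The most abundant sequence had 0 unpaired bases in miRC140, 2 in miRC167 and 3 each in miRC57, miRC162 and miRC179. All 5 members had at most 4, beside 89.8% of all candidates. With G-U pairs counted as unpaired, miRC57 rose to 5, miRC167 and miRC179 to 4, and miRC140 and miRC162 stayed at 0 and 3. By that count 4 of the 5 members and 95 of the 186 candidates had at most 4.

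miRC57 differed from the other members in its pairing, although its 3 unpaired bases were at the median of all candidates. The stretch facing its 3p sequence, bases 14 to 36 of the precursor, is shown with the bases paired to the 3p sequence in capitals.
miRC57 facing stretch: TGGTGaaaGTgGCTtaGGGGAAC
The 17 paired bases of the 3p sequence thus faced 23 bases, and unpaired bases on the facing strand outnumbered those on the 3p strand by 3. The other members had no such excess, and it was not compared over all candidates. The unpaired bases of the 3p sequence were A at position 11 and G at positions 14 and 15. No read was listed for this facing stretch. The 3p sequence was 75.0% G and C in a precursor of 39.3%, and no other candidate had a most abundant sequence richer in G and C, the median over all candidates being 43.5%. miRC140 and miRC179 had 52.4%, miRC167 had 38.1% and miRC162 had 36.4%.

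**Figure D4:**
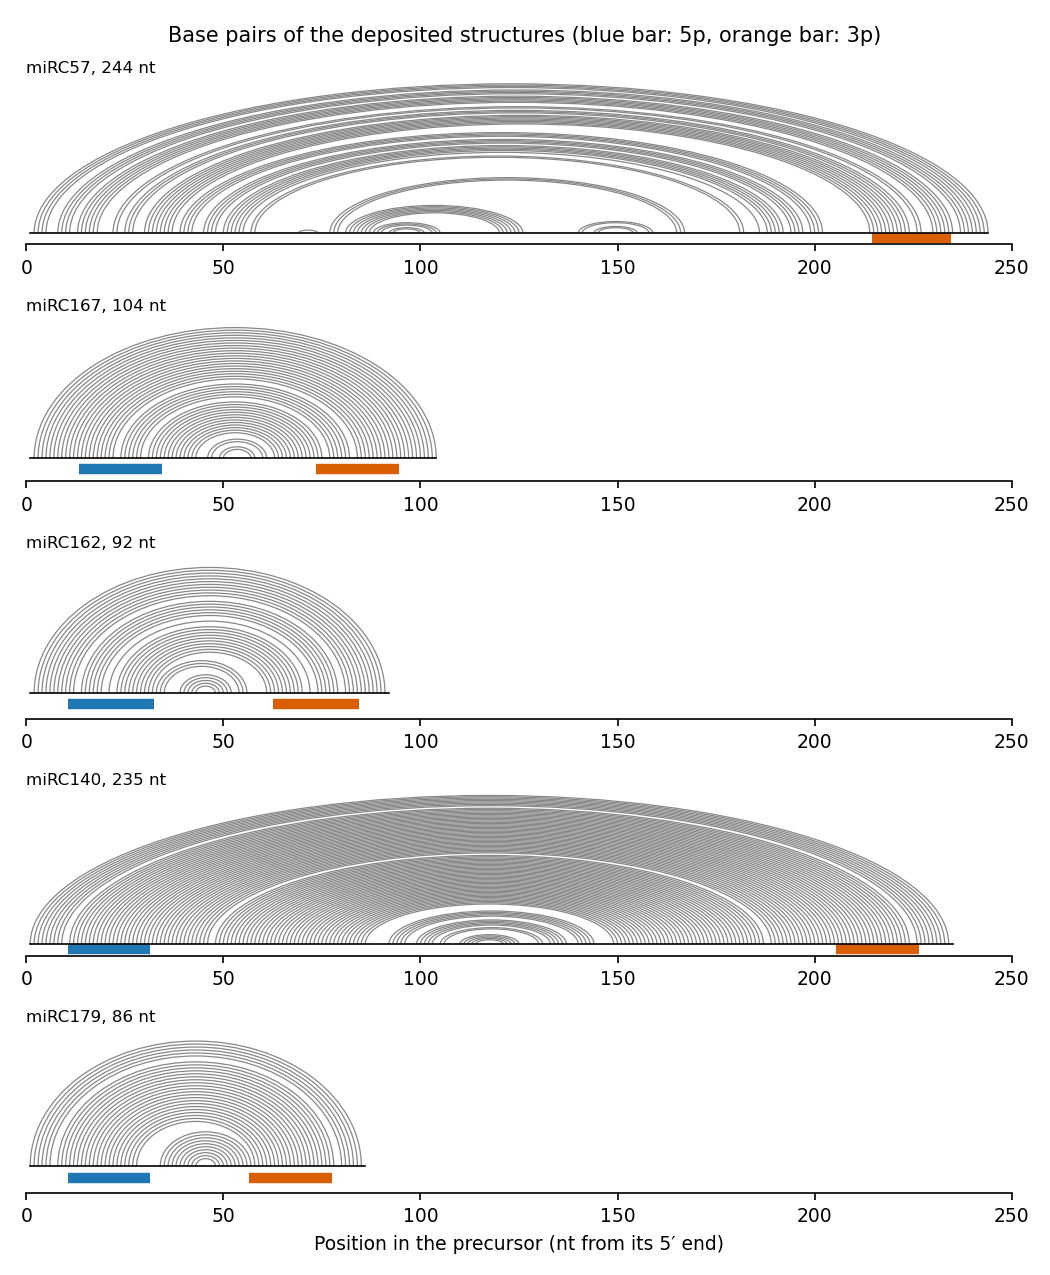
Base pairs of the deposited structures drawn as arcs along each precursor, with position in nt from its 5′ end; blue bars mark the 5p sequence and orange bars the 3p sequence. miRC162, miRC167 and miRC179 are single stems, miRC140 is 1 long stem with the arms near its open end, and miRC57 has wide unpaired gaps and 3 hairpin loops.

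The hairpins of miRC162, miRC167 and miRC179 were short, and those of miRC140 and miRC57 were long, beside a median of 122.5 nt over all candidates. Between the listed arms lay 25 bases in miRC179, 30 in miRC162, 39 in miRC167 and 174 in miRC140. miRC140 had 101 base pairs and miRC57, which is longer, had 63. Paired bases made up 86.0% of the precursor in miRC179 and in miRC140, 84.6% in miRC167, 78.3% in miRC162 and 51.6% in miRC57, with a median of 69.3% over all candidates. miRC57 was 183rd of 186 by this share, and the other 4 were among the first 25. The longest uninterrupted helix had 39 pairs in miRC140, the second longest of all candidates after the 46 pairs of miRC148. It had 21 in miRC167 and miRC179, 11 in miRC162 and 8 in miRC57, with a median of 11 over all candidates. Each precursor had 1 hairpin loop except miRC57, which had 3.

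The outer stem of miRC140 reached from its 5′ end to base 86 with 84 pairs, of which 3 were G-U, and 2 unpaired bases on the 5′ side. The most abundant sequence occurred in this stem on both strands. The reverse complement of bases 204 to 224, shown here as they stand on the plus strand, is the 5p sequence in full.
miRC140 bases 204 to 224: ggcatctaggctacattcgga
This stretch lies on scaffold 6 from 2567388 to 2567408 and overlaps the listed 3p sequence by 19 bases. A read of the 5p sequence thus fits 2 places of the same locus, 1 on each strand, and the 558 reads cannot be told apart by strand from their sequence. The 3p sequence, with 40 reads, had no such second place, since its best match on the minus strand of the precursor differed at 1 of 21 bases. The most abundant sequence was found on the other strand of its own precursor in 8 of 186 candidates, 4.30%. The other 7 had 7 to 48 reads, and miRC140 was the only member among the 8. The nearest match on the other strand differed at 3 bases in miRC162 and miRC179, at 4 in miRC167 and at 9 in miRC57.

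The deposited folding free energy, given as its size, was 157.4 kcal/mol in miRC140, 69.4 in miRC167, 51.4 in miRC179, 46.4 in miRC162 and 45.23 in miRC57. Per 100 nt of precursor this was 67.0 kcal/mol in miRC140, 66.7 in miRC167, 59.8 in miRC179, 50.4 in miRC162 and 18.5 in miRC57. The median over all candidates was 36.8 kcal/mol per 100 nt, with a range of 17.5 to 75.5. By this measure miRC140 was 5th, miRC167 was 6th, miRC179 was 12th, miRC162 was 25th and miRC57 was 182nd of 186. So the candidate with the most reads was among the least stable per length, while the other 4 were all above the median. Divided by the percentage of G and C as well, the energy was 1.79 in miRC140, 1.71 in miRC179, 1.36 in miRC167, 1.33 in miRC162 and 0.471 in miRC57, the last being the smallest of all candidates, whose median was 0.935. A hairpin structure was one of the criteria by which all candidates had been found, so these values describe how the members vary and are no test of the hairpins.

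**Figure D5:**
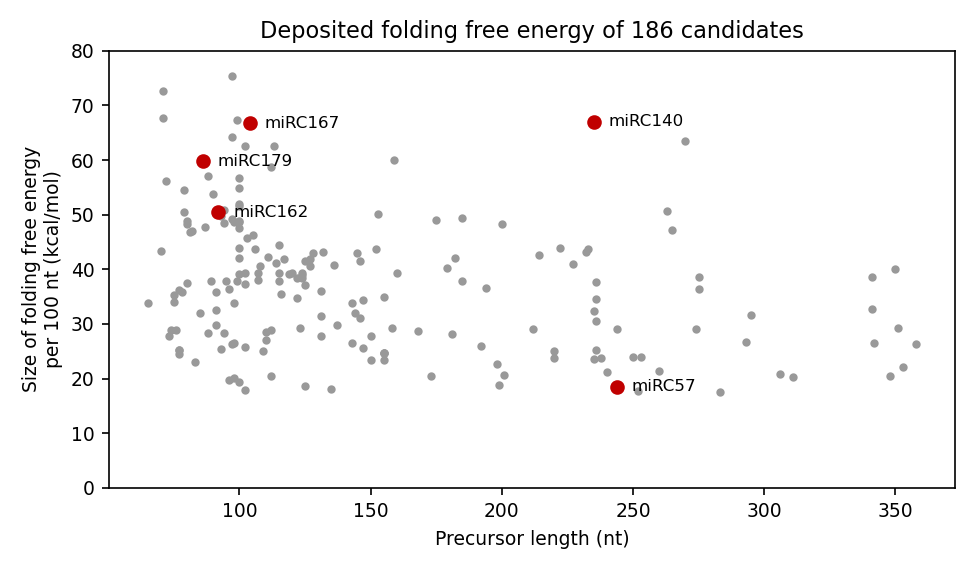
Size of the deposited folding free energy per 100 nt (kcal/mol) against precursor length (nt) for all 186 candidates, with the 5 members in red. miRC140, miRC167, miRC179 and miRC162 lie between 50.4 and 67.0, and miRC57 lies at 18.5.

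The structures of miRC140, miRC162, miRC167 and miRC179 were the same, pair for pair, when folded again with RNAfold, as were those of 59 of the 186 candidates. In miRC57 the 2 structures differed by 32 base pairs, but the pairs of its 3p sequence left the same number of bases unpaired. Over the ensemble of possible foldings, the mean probability that a base of the most abundant sequence was paired was 0.996 in miRC140, 0.898 in miRC167, 0.853 in miRC179, 0.850 in miRC162 and 0.798 in miRC57, with a median of 0.856 over all candidates. The mean number of pairs by which 2 foldings of the ensemble differed was 48.0 in miRC57 and 3.68 to 9.22 in the other members, with a median of 12.7 over all candidates. The structure of lowest energy made up 0.000753% of the ensemble in miRC57 and 3.64 to 40.8% in the other members. The folding of miRC57 was therefore the least settled of the 5.

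For miRC140, miRC167 and miRC179 the study designed primers for quantitative PCR after poly(A) tailing. The measured values of that assay and the degradome targets were not analysed here. The primers of miRC140 and miRC179 were the listed 5p sequences in full. The primer of miRC167 contained the listed 3p sequence and ran 3 bases beyond it, shown in capitals beside the precursor stretch of the same length.
miRC167 primer: tgattcttgttgacgtgatgtAAA
miRC167 precursor, same length: tgattcttgttgacgtgatgtGGT
The 3 added bases are not those of the precursor. In such an assay, A is added to the 3′ end of each RNA before reverse transcription. No primer was listed for miRC57 or miRC162.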

How the data were processed

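The authors trimmed adaptors, kept small RNA reads of 18 to 30 nt, removed those matching other non-coding RNA or known miRNAs, and searched the rest for hairpins on the peach genome with MIREAP at default parameters. They deposited raw read counts per precursor and per listed 5p and 3p sequence for 1 library, with folding free energies in kcal/mol. Structures had been checked by the authors with Mfold.

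From the table, arm sequences were located in each precursor and overhangs, pairs and unpaired bases were counted from the deposited structure, with code tested on hairpins of known pairing. The hairpins of that test had mismatches inside the arms but no bulges and no G-U pairs. Bulges such as those of miRC57 and miRC179 were therefore not covered by it. Shares carry 95% Wilson intervals (scipy 1.17.1). A count of 0 allows up to 3 reads. Precursors were refolded with RNAfold of ViennaRNA 2.7.2 at 37 °C. Edit distances were computed between most abundant sequences and all listed arms or the conserved sequences. The code ran under python 3.11.15 with numpy 2.4.6 and drew figures with matplotlib 3.10.9. With 1 library no test between samples was possible.

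The members, comparison sets and alternatives were chosen with earlier results of these data known. Named were the members, the 3 candidates with a sequence listed once just under the limit, and for each member its nearest sequences and nearest neighbour on the scaffold. miRC148 was named after its value was seen.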

Additional observations from a re-analysis of the deposited data

How the results depend on the processing

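The 5 members were the same with the limit set on the most abundant arm, with sequences within 2 edits of another arm left out and with sequences inside another precursor left out. There were 8 with a limit of 250 reads and 3 with 1000. The median share of the less abundant arm over the 5 members, with miRC57 counted as 0, was 1.33%. It is thus not comparable with a median over candidates that all have both arms. With all precursor reads as denominator it was also 1.33%. Exact intervals change only the bounds and leave the share as it is. The median energy of the members was 51.1 kcal/mol with RNAfold and 64.4 at 22 °C in place of 51.4, and the median percentile of the energy per 100 nt was 94.6 with RNAfold and 94.1 among candidates with a sequence listed once, in place of 94.1. With G-U pairs counted as unpaired, 4 in place of 5 members had at most 4 unpaired bases, and 95 in place of 167 of all 186 candidates. With at least 2 reads on each arm, both arms were listed for 3 in place of 4 members, without miRC179, and for 30 in place of 46 of all candidates. Overhangs of 2 bases at both ends were found in 3 members with RNAfold structures as well, beside 37 of 46 candidates with both arms. For the members this count could not differ, since RNAfold gave the same pairs for the 4 with both arms. Under the count added after seeing the data, such overhangs were found in 4 members beside 42 candidates. No paired analysis was possible because the table holds a single library. The partner strand of miRC179 rests on 1 read and that of miRC57 has none listed; the part of depth was not tested.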
